A study of Mus musculus with 48 samples.

Results

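Glucocorticoids are adrenal steroids released in a daily rhythm and in illness, and in skeletal muscle they are known to promote protein breakdown and to restrain growth signaling. They enter cells and bind the glucocorticoid receptor, which leaves its chaperone complex, moves to the nucleus and binds DNA, often as a dimer at a palindromic response element. Among its best known target genes are brakes on the hormone itself or on growth pathways, together with transcription factors that extend the response, and this report follows 9 such genes in tibialis anterior (TA) muscle of mice. They were chosen by name, with earlier results of these data known. They include the receptor *Nr3c1* and the feedback and signaling inhibitors *Fkbp5*, *Tsc22d3*, *Errfi1* and *Ddit4*. The kinase *Sgk1* and the transcription factors *Klf9*, *Klf15* and *Zbtb16* make up the rest. All 9 were found among the 56748 genes of the deposited expression table, of which 33218 had at least 1 read in any library, and all 9 passed the filter on low counts that left 15637 genes to test.

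Polyadenylated RNA of TA muscle was sequenced from 48 male mice, aged 39 to 55 weeks by the labels. WT mice were compared with FoxP1SkmKO mice, which carry homozygous floxed *Foxp1* alleles and a Cre transgene driven by the *ACTA1* promoter, so that the forkhead repressor FoxP1 is removed from muscle fibers and kept in every other cell type of the muscle. The sample labels call the WT mice C57BL/6J, whereas the series description calls them floxed mice without Cre, so whether the WT mice also carried the floxed alleles cannot be told from these sources. In each genotype, cells of KPC, a mouse pancreatic cancer line, were injected into the pancreas of the KPC mice, and phosphate-buffered saline into that of the control mice. All mice were then moved from a light cycle into constant darkness and killed at circadian time (CT) 18, 22, 26, 30, 34 or 38, where CT18 fell at midnight and CT30 at noon by the clock. Each of the 24 combinations of genotype, condition and time held 2 mice, and each mouse gave 1 library, so that p-values measure the spread between these mice, and the 6 times cover a single cycle.

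Libraries held 14480867 to 20787784 reads assigned to genes. Transcripts of the deleted gene were low in every group, at 0.63 ± 0.14 FPKM in WT control and 0.578 ± 0.0682 FPKM in FoxP1SkmKO control (SD, n = 12 each). *Foxp1* did not pass the test between genotypes, with a log2 fold change of −0.11 in control mice (adjusted p = 0.459) and of −0.20 in KPC mice (adjusted p = 0.246, edgeR quasi-likelihood test). Its gene-level value can include parts of the gene that Cre does not remove and cells in which Cre does not act. How far either enters this value was not tested, so the deletion could not be checked here. The defining markers of muscle fibers summed to between 44600 and 62600 FPKM in all 48 libraries. The libraries farthest from the rest, by their distance over all genes, were FoxP1SkmKO KPC CT18 replicate 2 and WT control CT26 replicate 1, and the second of these touches the CT26 results below. As these are whole muscles, fewer cells of a type and less RNA per cell cannot be told apart.

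Sites with the full palindromic response element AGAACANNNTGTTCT, a sequence the receptor dimer is known to bind, are shown first. Only exact matches were counted, and among the members only *Fkbp5* and *Sgk1* held any. The search covered the mm39 genome, with a margin of 10 kb on either side of each gene. Long genes thus had more sequence searched: *Fkbp5* spans 119464 bases and *Sgk1* 117720, while *Zbtb16*, which held no match, spans 185524. The element was found in or near 366 of 21770 protein-coding genes (1.68%) and in 2 of the 9 members. *Fkbp5*, on the minus strand of chromosome 17, held 2 of them, both in introns, at chr17:28639285-28639319 (65850 bases after the start of its canonical transcript) and at chr17:28661383-28661417 (43752 bases after it). *Sgk1*, on the plus strand of chromosome 10, held 1 at chr10:21869590-21869624, which lies upstream of its canonical start, at −958 bases, and inside an intron of longer transcripts. The sequences read 5′ to 3′ on the gene's strand, with the element in capitals.
Fkbp5 intronic site 1: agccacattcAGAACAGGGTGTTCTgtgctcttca
Fkbp5 intronic site 2: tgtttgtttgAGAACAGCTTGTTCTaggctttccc
Sgk1 upstream site: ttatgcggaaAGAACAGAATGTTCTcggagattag

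In the promoter windows of RefSeq (250 bases before to 50 after a start, build GRCm38.p6), 7 members had 15 windows, and *Nr3c1* and *Zbtb16* had none in the table. The full element was present in 3 of 32851 windows (0.00913%), of which 1 belonged to *Sgk1*. Its half-site, AGAACA or TGTTCT, was present in 19% of all windows and in 4 of the 15 member windows, those of *Sgk1* and *Tsc22d3*. The E-box CACGTG, a hexamer bound by the clock factors CLOCK and BMAL1 among others, was present in 7.15% of all windows and in a window each of *Fkbp5*, *Sgk1* and *Klf15*. The *Klf15* window held 3 copies on chromosome 6, and these are shown because *Klf15* was the member called for the averaged KPC effect in WT and also varied with time. The forkhead motif, TGTTTAC or its reverse complement GTAAACA, was present in 3.65% of windows and among the members in that of *Klf9*, shown because FoxP1 is a forkhead protein. The D-box (TTATGTAA or TTACGTAA, either strand) was present in 1.06% of windows, none of them a member's. These matches describe letters and not binding; capitals mark the motif, and both strands were searched.
Klf15 E-box 1, chr6:90462338-90462363: cccgaggtccCACGTGgtctgcactt
Klf15 E-box 2, chr6:90462394-90462419: gaacccgtctCACGTGcgcatcggag
Klf15 E-box 3, chr6:90462563-90462588: cccgcggcgtCACGTGagcggccgga
Klf9 forkhead motif, chr19:23141116-23141142: gggggagaaaGTAAACAgagttgaatc

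Levels were compared between genes in FPKM (fragments scaled to the length of the transcript and to the size of the library), a scale per transcript length. Over the 48 libraries the most abundant member was *Sgk1*, a kinase that regulates ion transport and growth signaling, at 50.7 ± 8.06 FPKM (SD, n = 48). *Tsc22d3*, which encodes the anti-inflammatory protein GILZ, followed at 44.7 ± 7.29 FPKM, and *Klf9*, a transcriptional repressor, at 40.8 ± 6.43 FPKM. A middle group held *Klf15*, an activator of amino acid catabolism (15.1 ± 3.26 FPKM), *Zbtb16*, a zinc finger transcription factor (14.8 ± 5.3 FPKM), and the receptor gene *Nr3c1* (11.1 ± 1.22 FPKM). The lowest were *Errfi1*, an inhibitor of epidermal growth factor receptor signaling (7.92 ± 1.34 FPKM), *Ddit4*, an inhibitor of mTORC1 (7.33 ± 4.12 FPKM), and *Fkbp5*, a co-chaperone that lowers the receptor's affinity for hormone (4.29 ± 1.68 FPKM). Neighbors in this order differed by less than the larger of their SDs, except for the steps from *Klf9* to *Klf15* and from *Nr3c1* to *Errfi1*, which exceeded both SDs.

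Mice killed at the same time differed in some members far more than in others. The SD between mice of 1 group, on the log2 CPM scale (counts scaled to library size, not to length), was 0.088 for *Klf9* and 0.098 for *Nr3c1*, against a median of 0.204 over all genes tested. It was 0.127 for *Tsc22d3*, 0.158 for *Errfi1*, 0.191 for *Sgk1* and 0.198 for *Klf15*. *Fkbp5* (0.284), *Zbtb16* (0.294) and *Ddit4* (0.484) varied most, and a *Ddit4* difference between groups therefore needed to be several times larger than a *Klf9* difference to pass the same test.

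Circadian time was the factor with which all 9 genes varied. In the joint test of the 6 times, averaged over genotype and condition, all 9 members varied (edgeR, adjusted p from 1.89e-11 for *Klf9* to 0.0455 for *Errfi1*), in a table where 40.6% of all genes did. The amount differed by gene, as the plot of levels by circadian time shows. *Fkbp5* had a mean of 6.14 FPKM at CT38 and of 2.89 FPKM at CT30, a ratio of 2.12. *Zbtb16* ranged from 10.3 FPKM at CT26 to 21.2 FPKM at CT38 (2.06), and *Ddit4* from 5.28 FPKM at CT26 to 10.8 FPKM at CT34 (2.05). *Klf9* moved less, from 34.4 FPKM at CT22 to 50.7 FPKM at CT34 (1.47), but with little spread: its 8 libraries at CT34 lay between 47.3 and 52.5 FPKM and its 8 at CT22 between 31.2 and 40.3 FPKM, without overlap.

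**Figure D1:**
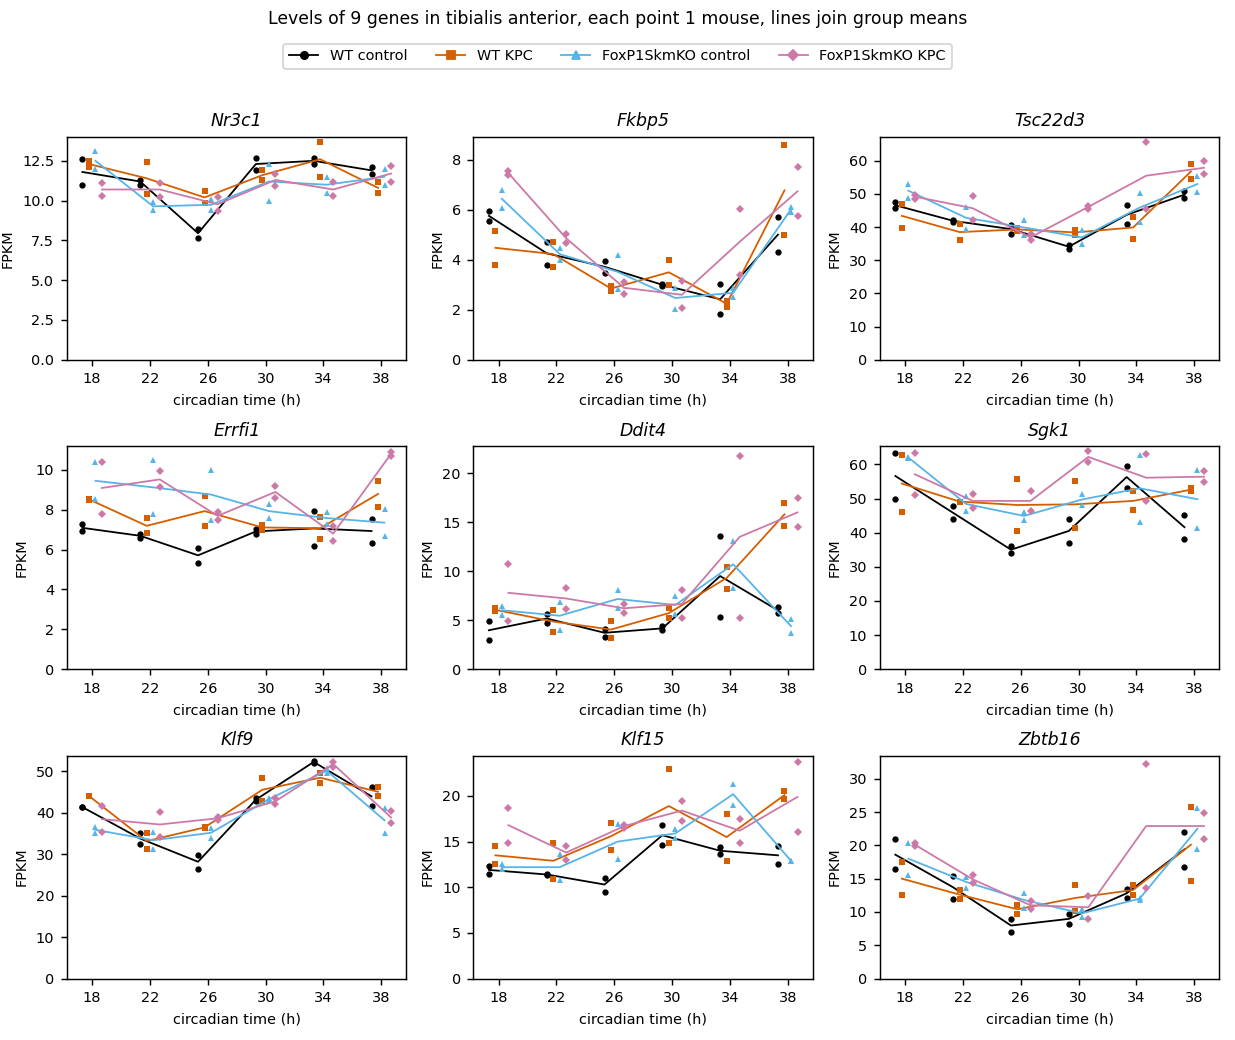
FPKM of the 9 genes (1 panel each, linear axis) against circadian time in hours, with a point for each mouse and a line through the mean of the 2 mice in each of the 4 combinations of genotype and condition. Points are offset sideways by group. The *Klf9* mean was highest at CT34 in every combination, and the means of *Fkbp5* and *Zbtb16* at CT26 and CT30 were below those at CT18 and CT38.

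The remaining members changed by a smaller ratio. *Tsc22d3* was highest at CT38 (54.4 FPKM) and lowest at CT26 (38.9 FPKM). *Klf15* was highest at CT30 (17.2 FPKM) and lowest at CT22 (12.6 FPKM). *Sgk1* and *Nr3c1* were both highest at CT18 and lowest at CT26, by ratios of 1.3 and 1.25, and *Errfi1* ranged over a ratio of 1.2. *Fkbp5*, *Tsc22d3* and *Klf9* varied with time in each of the 4 combinations taken alone. Over all members, 21 of 36 gene and group pairs passed, where the share of all genes that varied was 18.7% in WT control, 11.0% in WT KPC, 6.4% in FoxP1SkmKO control and 5.99% in FoxP1SkmKO KPC. *Nr3c1* and *Sgk1* passed in WT control and in no other group. *Ddit4* passed only in WT KPC and *Errfi1* only in FoxP1SkmKO KPC. In WT control the means of *Nr3c1* and *Sgk1* were lowest at CT26 (7.95 and 35 FPKM). That group holds replicate 1, a library far from the rest, and its part in these 2 calls is not shown here. Whether the variation itself differed with KPC is tested below.

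Rhythm was examined by fitting a 24 h sine wave to the FPKM of the 12 mice in each combination, with a gene called rhythmic at an unadjusted p under 0.01. In WT control mice 4 members were called, where 4.92% of the 27209 genes with varying FPKM were. The shares of rhythmic genes include genes that the filter on low counts removed, unlike the shares of the edgeR tests. *Zbtb16* had an amplitude of 6.09 ± 0.821 FPKM (SE), or 44.9% of its mean level, and peaked at CT40.0. *Klf9* peaked at CT35.6 with an amplitude of 9.96 ± 1.6 FPKM. *Tsc22d3* peaked at CT39.8, with 6.64 ± 1.1 FPKM, and *Fkbp5* at CT18.4, with 1.45 ± 0.309 FPKM. The *Klf9* peak was thus earlier in the cycle than those of the other 3, a difference that was not tested.

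In WT KPC mice *Klf9* (CT35.1, amplitude 7.09 ± 1.22 FPKM) and *Ddit4* (CT37.1, 4.86 ± 1.06 FPKM) were called, against 4.22% of the 27396 genes with varying FPKM. In FoxP1SkmKO control mice the members called were *Fkbp5* (CT41.5), *Tsc22d3* (CT39.6), *Klf9* (CT33.4) and *Zbtb16* (CT40.3), against 4.07% of 28711 such genes. *Fkbp5* (CT40.3, 2.53 ± 0.348 FPKM, 51.8% of its mean level) and *Tsc22d3* (CT37.2) were called in FoxP1SkmKO KPC mice, against 2.63% of 28430 such genes. Some genes that missed the threshold had similar amplitudes: *Zbtb16* in FoxP1SkmKO KPC had 6.89 ± 2.04 FPKM at a peak of CT38.2. With Benjamini-Hochberg adjustment over all genes, *Zbtb16* in WT control was the single call that remained.

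**Figure D2:**
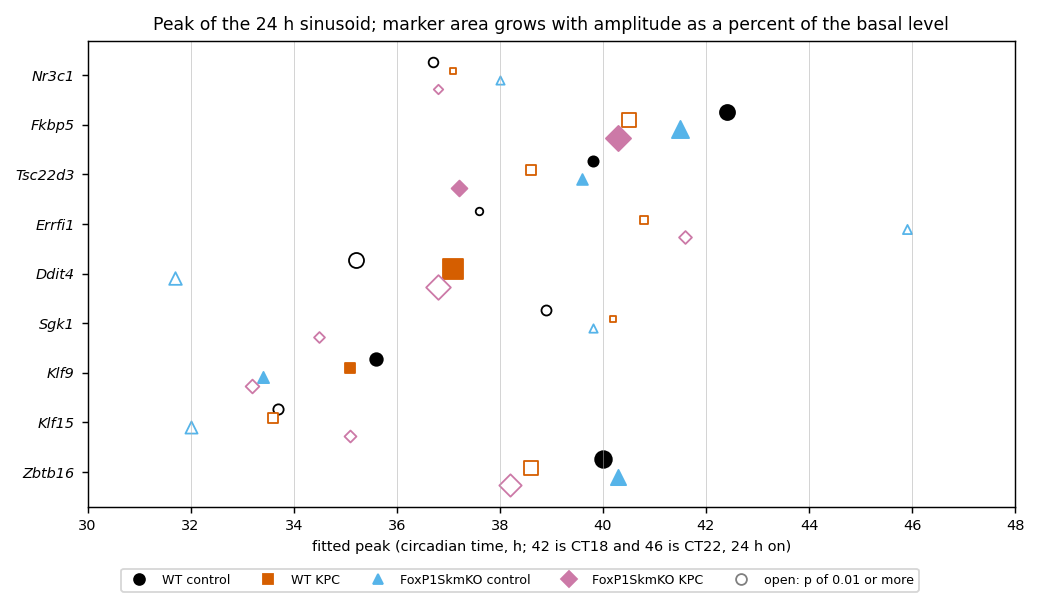
Fitted peak time in circadian hours (horizontal axis, 30 to 48 h, with earlier peaks moved on by 1 period) of each of the 9 genes in the 4 combinations of genotype and condition, with filled points where the unadjusted p was under 0.01 and a marker area that grows with the amplitude as a percent of the mean level. The called *Klf9* peaks lie between CT33.4 and CT35.6, and those of *Zbtb16* and *Tsc22d3* between CT37.2 and CT40.3.

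Whether KPC changed these rhythms was tested directly. No member differed in its sinusoid between KPC and control in either genotype (lowest adjusted p = 0.752 of 18 F tests, and none at an unadjusted p under 0.05), nor did any of the 29593 genes tested in WT or the 31244 tested in FoxP1SkmKO (0.0% in both). In the edgeR test of whether the KPC effect differed among the 6 times, no member passed in either genotype, with 5 of 18 tests at an unadjusted p under 0.05 and no call by DESeq2. Of all genes, 0.883% passed that edgeR test in WT and 0.0% in FoxP1SkmKO, and 12.2% and 9.76% had an unadjusted p under 0.05. A gene that was called rhythmic in control and not in KPC is therefore not shown to have lost its rhythm.

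*Klf15* was higher with KPC in WT muscle. Averaged over the 6 times, the log2 fold change of KPC over control was 0.32 ± 0.074 (SE, adjusted p = 0.0188, edgeR), and the KPC mean was higher at 6 of 6 times. The 12 WT control mice ranged from 9.48 to 16.8 FPKM with a median of 12.4, and the 12 WT KPC mice from 10.9 to 23 FPKM with a median of 14.9. The groups overlapped widely, since each spans the 6 times. Of the 9 members *Klf15* was the only call, where 1.79% of all genes were called.

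The *Klf15* call rested on several mice. It was lost, with adjusted p between 0.052 and 0.073, without any of WT control CT30 replicate 2, WT KPC CT26 replicate 2, WT KPC CT30 replicate 1, WT KPC CT34 replicate 2 or WT KPC CT38 replicate 2, and the log2 fold change of *Klf15* then stayed between 0.26 and 0.32. Leaving CT26 out of the average gave 0.27 (adjusted p = 0.1), and leaving CT38 out gave 0.27 (adjusted p = 0.077).

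The other members did not pass in WT. *Errfi1* had a log2 fold change of 0.20 ± 0.062 (adjusted p = 0.0805), with the KPC mean higher at 6 of 6 times. *Ddit4* had 0.41 ± 0.179 (adjusted p = 0.264) and *Sgk1* 0.15 ± 0.070 (adjusted p = 0.297). The values were 0.08 for *Zbtb16*, 0.07 for *Klf9*, 0.04 for *Nr3c1*, −0.00 for *Tsc22d3* and −0.04 for *Fkbp5*. The members' median was 0.083 with 7 of 9 above 0, beside a median of 0.002 over all genes tested, of which 50.6% were above 0.

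In FoxP1SkmKO mice no member passed, where 0.428% of all genes did. With edgeR 4 of 9 had an unadjusted p under 0.05, beside 12.4% of all genes. They were *Klf15*, *Ddit4*, *Tsc22d3* (log2 fold change 0.11 ± 0.049) and *Klf9* (0.08 ± 0.037), and not *Fkbp5* or *Zbtb16*. With DESeq2 the same 4 had an unadjusted p under 0.05, and no member was called. *Klf15* had a log2 fold change of 0.22 ± 0.073 (adjusted p = 0.17), with KPC higher at 5 of 6 times. *Ddit4* had 0.47 ± 0.171 (adjusted p = 0.219), *Fkbp5* 0.20 ± 0.102 (adjusted p = 0.431) and *Zbtb16* 0.20 ± 0.105 (adjusted p = 0.441). These values turned on FoxP1SkmKO KPC CT34: without replicate 2 they were 0.24 for *Ddit4* (adjusted p = 0.6), 0.12 for *Fkbp5* and 0.07 for *Zbtb16*, and without replicate 1 *Ddit4* was at 0.58 (adjusted p = 0.045). The test of the difference between genotypes called no member and no gene at all (0.0%), with no member at an unadjusted p under 0.05 by edgeR or DESeq2. For *Klf15* that difference, WT minus FoxP1SkmKO, was 0.11 ± 0.104, so the call in WT and the missed call in FoxP1SkmKO do not show different effects.

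At CT26, 8:00 by the clock, the members had their only calls at a single time, in WT muscle. *Klf9* was at 26.4 and 29.9 FPKM in WT control and at 36.4 and 36.6 FPKM in WT KPC (log2 fold change 0.37 ± 0.091, adjusted p = 0.0107, edgeR). *Nr3c1* was at 7.65 and 8.24 FPKM in control and at 9.85 and 10.6 FPKM in KPC (0.36 ± 0.099, adjusted p = 0.0227). *Klf15* was at 11 and 9.48 FPKM in control and at 14.1 and 17 FPKM in KPC (0.60 ± 0.183, adjusted p = 0.0409). Both KPC mice lay above both control mice for each of these genes, an order that adds no support to calls made on the same mice. The called genes were 3 of the 9 members, where 7.17% of all genes were called. They made the only calls among the 54 member and time pairs in WT (1.2% of all pairs of a gene and a time).

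**Figure D3:**
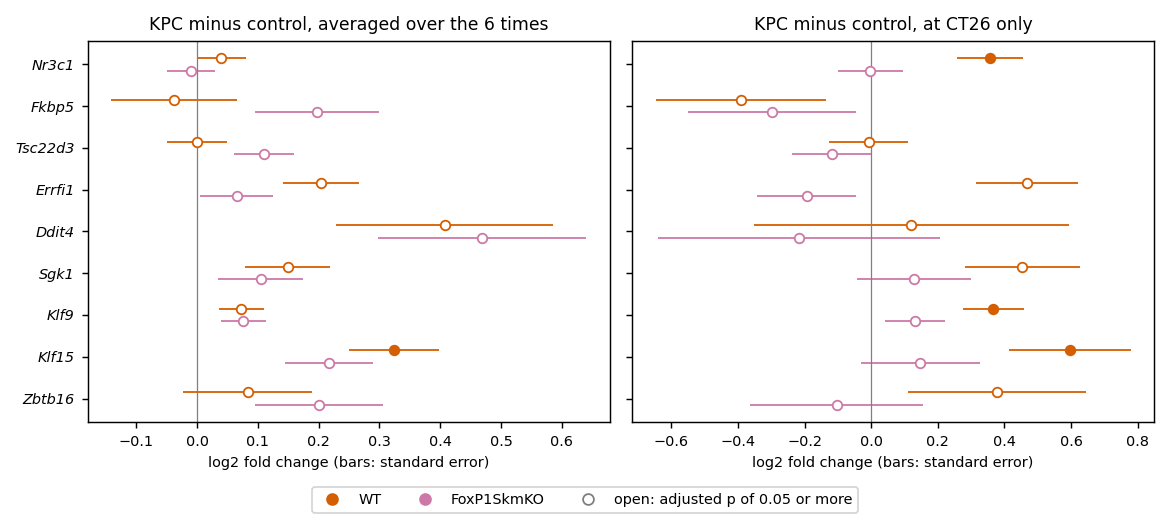
Log2 fold change of KPC over control (horizontal axis, edgeR, bars ± 1 SE) of the 9 genes in WT and FoxP1SkmKO, averaged over the 6 times (left) and at CT26 (right), with filled points where the adjusted p was under 0.05. *Klf15* in WT is the filled point on the left (0.32), and *Nr3c1*, *Klf9* and *Klf15* in WT are those on the right (0.36, 0.37 and 0.60).

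The WT control mice at CT26 stood apart from the other groups of that hour as well. Both had lower FPKM than all 6 other CT26 libraries in *Nr3c1*, *Errfi1*, *Sgk1*, *Klf9*, *Klf15* and *Zbtb16*, 6 of 9 members, an order that 14.1% of all genes tested showed. The opposite order was found in none of the 9 members and in 11.9% of all genes. In FoxP1SkmKO mice at CT26, *Klf9* was at 36.3 and 34 FPKM in control and at 39.1 and 38.3 FPKM in KPC. *Nr3c1* was at 9.4 and 10.1 FPKM in control and at 10.2 and 9.36 FPKM in KPC there. No member was called in FoxP1SkmKO at CT26 (0.0384% of all genes). The members' median log2 fold change was −0.104 there, beside 0.367 in WT, where the median over all genes tested was 0.004. The difference between genotypes at CT26 was not tested.

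The 3 calls at CT26 depended on single libraries. Without WT control CT26 replicate 1, the library that stood apart, *Klf9* had a log2 fold change of 0.26 (adjusted p = 0.33), *Nr3c1* 0.29 (adjusted p = 0.35) and *Klf15* 0.69 (adjusted p = 0.2), and the number of genes called fell from 1121 to 86. Without WT control CT26 replicate 2, *Klf9* (0.45, adjusted p = 0.009) and *Nr3c1* (0.40, adjusted p = 0.037) were still called and *Klf15* was not (0.48, adjusted p = 0.2). Without WT KPC CT26 replicate 1 the adjusted p was 0.076 for *Klf9*, 0.074 for *Nr3c1* and 0.076 for *Klf15*, and without replicate 2 it was 0.082, 0.21 and 0.31. Fitted on the 4 libraries of this comparison alone, *Klf9* (0.37, adjusted p = 0.07) and *Nr3c1* (0.36, adjusted p = 0.076) were not called, and *Klf15* was (0.60, adjusted p = 0.038). The *Klf15* call at CT26 was lost in 22 of the 48 fits that left out 1 library each, most of them libraries of other groups.

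Summed markers of some cell types did not overlap between WT control and WT KPC at CT26. The 5 erythroid markers summed to 246 to 330 FPKM in WT control and to 161 to 177 FPKM in WT KPC, and the 6 fibroblast markers to 43.8 to 53.1 and 30.4 to 39.9 FPKM, without overlap. The 5 Schwann cell markers (24.9 to 26.3 FPKM in control, 20.2 to 22 in KPC) and the 8 muscle fiber markers (55800 to 62600 FPKM in control, 54200 to 54600 in KPC) did not overlap either. The 6 adipocyte markers summed to 3.99 to 8.39 FPKM in control and 0.531 to 4.32 FPKM in KPC, with overlap. Of these lists, 2 of the 8 muscle fiber markers passed the edgeR test at CT26, where 7.17% of all genes were called. *Myh4*, a fast myosin, was higher in KPC (0.36 ± 0.112, adjusted p = 0.0434) and *Pvalb*, a calcium buffer of fast fibers, lower (−0.40 ± 0.122, adjusted p = 0.0401). *Flt1*, 1 of 6 endothelial markers, was higher in KPC (0.47 ± 0.149, adjusted p = 0.0483). These calls also include the library that stood apart, WT control CT26 replicate 1. The macrophage, neutrophil, endothelial, T cell, liver, slow fiber and tumor epithelium sums overlapped between WT control and WT KPC. With 2 mice on each side, an order without overlap arises easily by chance, and the sums were not tested. The part of any of these cells in the CT26 values was not tested.

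*Ddit4* had its highest fold change at CT38. It was at 6.32 and 5.68 FPKM in WT control and at 14.6 and 17 FPKM in WT KPC, and at 3.68 and 5.1 FPKM in FoxP1SkmKO control and 17.5 and 14.5 FPKM in FoxP1SkmKO KPC. All 4 KPC mice thus lay above all 4 control mice. The log2 fold changes were 1.40 ± 0.415 (adjusted p = 0.244) in WT and 1.86 ± 0.424 (adjusted p = 0.0978) in FoxP1SkmKO, neither past the threshold in the fit of all 48 libraries. Fitted on the 4 libraries of each comparison alone, *Ddit4* passed in both genotypes (edgeR, adjusted p = 0.00035 and 0.0016). Those fits called 63 of 13596 genes in WT and 34 of 13788 in FoxP1SkmKO. The fit of all 48 libraries called 4 and 1 of 15637. A fit on 4 libraries also leaves out the spread of *Ddit4* in the other groups. DESeq2 called *Ddit4* in FoxP1SkmKO (adjusted p = 0.041), as 1 of 26 genes.

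The same order at CT38, KPC above control in both genotypes without overlap, held for *Klf15* and *Errfi1*. *Klf15* was at 14.5 and 12.5 FPKM in WT control, 19.7 and 20.5 in WT KPC, 12.9 and 12.9 in FoxP1SkmKO control, and 23.7 and 16.1 in FoxP1SkmKO KPC. Its log2 fold change in WT was 0.58 ± 0.179 (adjusted p = 0.276), with an adjusted p of 0.036 in the fit of 4 libraries that called 63 genes. *Errfi1* was at 7.52 and 6.34 FPKM in WT control, 8.14 and 9.45 in WT KPC, 6.67 and 8.03 in FoxP1SkmKO control, and 10.9 and 10.7 in FoxP1SkmKO KPC. These 3 of 9 members compare with 3.17% of all genes, and the reverse order held for no member and 3.02% of genes. In FoxP1SkmKO none of the 54 member and time pairs passed with edgeR (0.0107% of all pairs), and DESeq2 called 1. At an unadjusted p under 0.05 there were 9 pairs with edgeR, beside 4.05% to 13.8% of all genes at the single times.

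In mice without tumors, *Errfi1* was higher in FoxP1SkmKO than in WT. The Cre transgene, and possibly the floxed alleles, went with the genotype and cannot be told apart from the deletion. *Errfi1* ranged from 5.31 to 7.95 FPKM in WT control (median 6.79) and from 6.67 to 10.5 FPKM in FoxP1SkmKO control (median 7.94), with partial overlap. The log2 fold change of FoxP1SkmKO over WT was 0.31 ± 0.061 (adjusted p = 0.00285, edgeR), FoxP1SkmKO was higher at 6 of 6 times, and no single library removed the call. It was the only member called, where 3.44% of all genes were. *Klf15* had 0.19 ± 0.074 (adjusted p = 0.157), *Sgk1* 0.17 ± 0.070 (adjusted p = 0.186) and *Ddit4* 0.33 ± 0.179 (adjusted p = 0.345).

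Among KPC mice no member passed between genotypes with edgeR (0.32% of all genes did). At an unadjusted p under 0.05 there were 6 of 9, beside 10.8% of all genes. The lowest adjusted p was that of *Tsc22d3*, with a log2 fold change of 0.18 ± 0.049 (adjusted p = 0.0905), which DESeq2 called (adjusted p = 0.034). *Errfi1* had 0.17 ± 0.061 (adjusted p = 0.254) and *Zbtb16* 0.26 ± 0.105 (adjusted p = 0.361). Without FoxP1SkmKO KPC CT34 replicate 2, *Zbtb16* was at 0.13 and *Tsc22d3* at 0.14. The 12 WT KPC mice are in both this comparison and that of KPC with control in WT, so these values are not independent of the earlier ones.

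The difference between the 2 mice of a group removes time, genotype and condition, and its correlation between members was examined over the 24 groups. Of 36 pairs of members, 22 had a positive r and 2 passed the permutation test after Benjamini-Hochberg adjustment. *Fkbp5* and *Zbtb16* had a Pearson's r of 0.67 (permutation p = 2.6e-04, adjusted p = 0.00936) and a Spearman's rho of 0.56 (permutation p = 0.00451, adjusted p = 0.0812), with the same sign in 18 of 24 groups. *Tsc22d3* and *Ddit4* had an r of 0.63 (permutation p = 0.0012, adjusted p = 0.0216) and a rho of 0.44 (permutation p = 0.0331, adjusted p = 0.278), with the same sign in 17 of 24.

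Both relations rested in part on few mice. The 2 groups farthest from the median of the first gene of each pair, *Fkbp5* or *Tsc22d3*, were left out. The r was then 0.45 for *Fkbp5* and *Zbtb16* and 0.40 for *Tsc22d3* and *Ddit4*, each with a permutation adjusted p of 0.35. FoxP1SkmKO KPC CT34 was among the 2 farthest groups for each of the 4 genes. Its replicate 2 had 21.8 FPKM of *Ddit4*, against 5.23 in replicate 1, and 32.2 FPKM of *Zbtb16*, against 13.6. *Tsc22d3* was at 65.6 FPKM in replicate 2 and at 45.4 in replicate 1, and *Fkbp5* at 6.03 and 3.41.

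**Figure D4:**
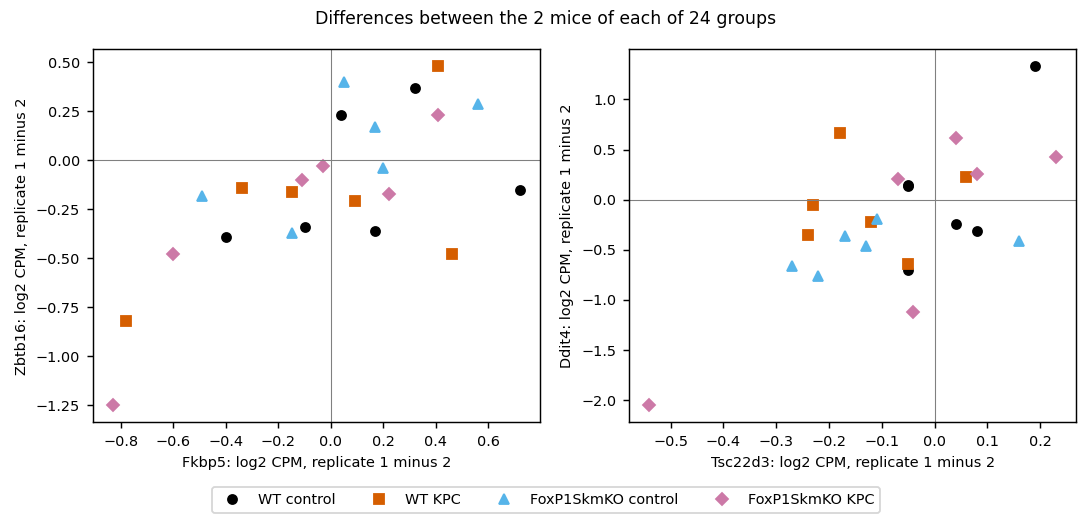
Difference in log2 CPM between replicate 1 and replicate 2 of each of the 24 groups, *Fkbp5* against *Zbtb16* and *Tsc22d3* against *Ddit4*, with 1 point for each group. Differences have the same sign in 18 and 17 of the 24 groups, and a few groups lie far from the center.

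The genes whose log2 CPM followed each member most closely over the 48 libraries were sought among 12631 genes. These correlations are descriptions, since libraries share times, genotypes and conditions. *Klf9* was followed by *Usp2* (r = 0.866), the clock gene *Cry2* (0.857) and *Trpm7* (0.852). *Fkbp5* was followed by *Banp* (0.851), *Ppp1r3c* (0.831) and *Ankrd9* (0.817), and *Zbtb16* by *Slc7a8* (0.839), *Prima1* (0.838) and *Tecpr2* (0.832). *Tsc22d3* shared *Slc7a8* (0.826) with *Zbtb16*, after *Atoh8* (0.835) and beside *Glul* (0.826), the glutamine synthetase gene.

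*Klf15* was followed by *Pim3* (0.834), *Mylip* (0.794) and *Zcchc24* (0.771). *Errfi1* was followed by *Sik1* (0.806), *Klf2* (0.788) and *Klf4* (0.765), and *Ddit4* by *Sema7a* (0.822), *Arrdc2* (0.786) and *Nfkbia* (0.777). *Nr3c1* was followed by *Dennd4c* (0.824), *Lrp6* (0.811) and *Zbtb20* (0.807). *Sgk1* had the lowest likeness to any gene, with *Polr1a* at 0.627, *Klf6* at 0.610 and *Dnajc13* at 0.604.

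Other genes of the pathway were taken from lists, whose counts stand beside the shares of all genes called: 1.79% for KPC in WT and 0.428% in FoxP1SkmKO on average, 7.17% at CT26 in WT, 3.44% for genotype in control mice and 40.6% with time. The calls at CT26 carry the limit given above, since without WT control CT26 replicate 1 they fell from 1121 to 86 genes. Of 27 further genes of muscle known to be induced by glucocorticoids, 4 rose and none fell with KPC in WT averaged over the times, with a list median of 0.155. *Cebpd*, a transcription factor of the acute response, rose by a log2 fold change of 0.70 ± 0.107 (adjusted p = 0.000387), and *Tgm2*, a transglutaminase, by 0.29 ± 0.056 (adjusted p = 0.00574). *Per1* and *Arrdc2* were the others. In FoxP1SkmKO *Cebpd* and *Arrdc2* rose and the remaining 25 did not pass. At CT26 in WT 2 rose, *Per1* (1.71 ± 0.364, adjusted p = 0.00301) and *Foxo3* (0.52 ± 0.146, adjusted p = 0.0248), a share close to that of all genes. In control mice 5 of the 27 were higher in FoxP1SkmKO than in WT: *Pdk4*, *Dusp1*, *Arrdc2*, *Per1* and *Cdkn1a*. With time, 18 of 27 varied.

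Of 18 tested genes for steroid supply and receptor handling (chaperones, cofactors and enzymes that activate the hormone), 1 rose with KPC in WT, *H6pd*, which supplies the cofactor for that activation (0.17 ± 0.044, adjusted p = 0.037), and none passed in FoxP1SkmKO. At CT26 in WT 7 rose and none fell, where 7.17% of all genes were called, among them the coactivator *Ep300* (0.83 ± 0.103, adjusted p = 8.56e-06) and the corepressor *Ncor1* (0.67 ± 0.086, adjusted p = 1.14e-05). Of 9 amino acid catabolism genes linked to KLF15, none rose with KPC in WT and 1 fell, the alanine transaminase gene *Gpt* (−0.19 ± 0.051, adjusted p = 0.0462). None of these 9 passed in FoxP1SkmKO. With so few genes called in all, a count of 0 or 1 in a list of this size is near the share of all genes.

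All 18 clock genes varied with time, beside 40.6% of all genes, and 2 rose with KPC in WT, *Per1* (0.61 ± 0.135, adjusted p = 0.0159) and *Bhlhe40* (0.30 ± 0.068, adjusted p = 0.0186). At CT26 3 rose, beside 7.17% of all genes called, with *Per2* at 1.09 ± 0.278 (adjusted p = 0.013). Of 14 close relatives of the members, none passed on average with KPC in WT and 2 of 14 rose at CT26, *Tsc22d2* (0.33 ± 0.097, adjusted p = 0.0302) and *Klf6* (0.57 ± 0.170, adjusted p = 0.0335). None of 12 immediate early genes and none of 6 tested inflammatory genes that glucocorticoids repress passed with KPC in either genotype on average.

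Markers of other cell types moved with KPC in WT. *S100a8* and *S100a9*, the only 2 of 6 neutrophil markers that passed the filter, rose by log2 fold changes of 2.83 ± 0.706 (adjusted p = 0.0315) and 2.06 ± 0.496 (adjusted p = 0.0269). Their list summed to 0 to 1.47 FPKM in WT control and 0.666 to 3.46 FPKM in WT KPC. Of 6 fibroblast markers *Col1a1* (−0.91 ± 0.208, adjusted p = 0.0188) and *Col1a2* (−0.80 ± 0.185, adjusted p = 0.0207) fell, and the list summed to 29.3 to 79.1 FPKM in control and 19.2 to 75 FPKM in KPC. Of 6 endothelial markers *Kdr* fell (−0.27 ± 0.072, adjusted p = 0.0412), with sums of 63.9 to 99.2 and 68 to 93.1 FPKM. No macrophage, adipocyte, T cell, Schwann cell, erythroid, liver, slow fiber or tumor epithelium marker passed in this comparison. The part of these cells in the *Klf15* value was not tested.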

How the data were processed

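Per the submitters' processing notes, reads were aligned to mm39 with HISAT2 2.0.5 (the study's methods name STAR) and compared with DESeq2 1.20.0. The authors deposited, for each of 12 comparisons, a raw count per gene and a signal (count divided by size factors), and FPKM values for the whole series. The deposited fold change and p columns of these tables hold the study's own comparisons and were not used.

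Counts were fitted with edgeR 4.0.16 (quasi-likelihood, TMM scaling, filterByExpr, 1 coefficient per group, 48 libraries, prior degrees of freedom 8.611), and p-values were Benjamini-Hochberg adjusted over 15637 genes and called under 0.05. SE is the log2 fold change divided by the root of F. Sinusoids were fitted to FPKM with an F test on 9 residual degrees of freedom, and the difference in rhythm on 18. Mouse correlations used log2 CPM (prior count 2) and 100000 permutations. Scripts were tested on simulated data. Mice of a group differed by more than sampling noise (chi-square per degree of freedom 5.15 to 17.4). DESeq2 1.42.0, RLE scaling, no filter, a replicate block and leaving out libraries or times were alternatives.

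All 9 members are named. From each other list, up to 2 genes with the lowest adjusted p among those called for the averaged KPC effect or at CT26 in WT are named, and for each member the 3 genes most correlated with it; other names in counts of 5 or fewer were chosen after their values were seen. Members and lists were chosen with earlier results of these data known. The genome search for the response element and the counts of non-overlapping groups were added after seeing the data.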

Additional observations from a re-analysis of the deposited data

How the results depend on the processing

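Counts of members called are given here under other processing; the cause of a change was not tested unless named. Without the filter on low counts (33218 genes, where edgeR set every gene's spread to the trend, so that genes with variable mice pass more easily) the members called rose from 1 to 4 for KPC in WT, from 0 to 4 for KPC in FoxP1SkmKO, from 1 to 4 and from 0 to 4 for genotype in control and KPC mice, from 3 to 12 and from 0 to 6 at single times in WT and FoxP1SkmKO, and from 0 to 9 for KPC by time. Calls over all genes rose as well, from 280 to 794 for KPC in WT and from 67 to 527 in FoxP1SkmKO. For genotype they rose from 538 to 933 in control and from 50 to 470 in KPC mice. At single times they went from 0 to 1121 in WT with the filter to 134 to 1130 without it. In FoxP1SkmKO they went from 0 to 6 to 87 to 596. For KPC by time they rose from 138 to 806 in WT and from 0 to 905 in FoxP1SkmKO. DESeq2 called 1 member for genotype in KPC mice and 1 at single times in FoxP1SkmKO, as did fits on 4 libraries for the latter. Over all genes DESeq2 called 117 for genotype in KPC mice and 1 to 101 at single times in FoxP1SkmKO. Fits on 4 libraries called 0 to 42 there. With CT26 or CT38 left out, 0 members were called for KPC in WT (138 and 226 of all genes). With CT34 left out, 1 was called in FoxP1SkmKO (107 of all genes). With CT26 left out, 1 was called for genotype in KPC mice (40 of all genes). Adjusted over all genes, rhythmic members were 1 in WT control and 0 in the other groups; with genes under a mean of 1 FPKM also removed, 1 in WT KPC, 2 in FoxP1SkmKO control and 1 in FoxP1SkmKO KPC. FoxP1SkmKO KPC held 1 rhythmic member on CPM and 1 with a replicate block. Leaving out 2 groups took the correlated pairs from 2 to 0.

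Leaving out each library in turn gave 0 to 1 members for KPC in WT, 0 to 1 in FoxP1SkmKO, 0 for their difference, 1 for genotype in control and 0 to 1 in KPC mice, 0 to 4 and 0 to 2 at single times in WT and FoxP1SkmKO, 8 to 9 for variation over time and 18 to 22 of 36 within groups. Rhythmic members numbered 3 to 4 in WT control, 1 to 2 in WT KPC, 3 to 4 in FoxP1SkmKO control and 1 to 3 in FoxP1SkmKO KPC. A lone mouse is assumed to vary like the other groups.

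Replicate numbers did not pair mice: over 276 pairs of groups the median correlation of deviations was −0.0038, and 4.35% exceeded 0.1. With the replicate block, *Errfi1* at CT26 in WT passed (adjusted p = 0.045). Of 630 other values of single members, 592 kept their side of the threshold, 4 lost and 34 gained a call, and no called value reversed. With 2 mice a group, differences of genes as variable as *Ddit4* are poorly resolved.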
